A study of Nicotiana tabacum with 6 samples.

Results

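The chaperones HSP70 and HSP90 and the heat shock transcription factors were followed in leaves of 2 tobacco (Nicotiana tabacum) lines. Members were the gene models whose deposited domain description named heat shock protein 70, Hsp90 or heat shock factor and did not name DnaJ. The rule found 154 of the 69500 gene models, and 102 of them reached at least 1 FPKM in at least 3 of the 6 libraries and were tested. These were 43 models of the HSP70 class, 21 of the HSP90 class and 38 of the heat shock factor class. FPKM count sequenced fragments relative to transcript length and library size. The file header names no unit, and FPKM was inferred from the values and from the tools named by the submitters.

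The 2 groups were GDH64, a flue-cured tobacco line, and MuGDH64, an aphid-resistant line bred from GDH64 after cobalt gamma irradiation, with 3 leaf libraries each. The submitters' title names a mutation of NtCYC in MuGDH64, which was not checked here. MuGDH64 is 1 irradiated line, so a difference between the groups cannot be told apart from any other difference between these lines. The design text describes field plots in randomized blocks and frozen punches of middle leaves, pooled from 3 plants of a plot. Neither line is described as heated or otherwise treated, and no label ties a library to a sampling date, a season or a block, so p values measure the spread between these libraries.

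HSP70 proteins bind exposed hydrophobic stretches of other proteins and release them in cycles of ATP hydrolysis, helped by DnaJ co-chaperones and nucleotide exchange factors. HSP90 dimers act later, on nearly folded clients such as kinases and receptors, and endoplasmin is the HSP90 of the endoplasmic reticulum. Heat shock factors are DNA-binding proteins, and many of them switch on chaperone genes when unfolded proteins build up. A small heat shock factor binding protein can restrain such factors. The descriptions do not tell which factors activate genes. In plants each class is a family with members for the cytosol, the plastid, the mitochondrion and the endoplasmic reticulum, some made all the time and some only under stress. The descriptions in the table give protein domains, not protein names, so the compartment of a model is known only where the description says endoplasmin or carries the DnaK signature, which is shared with bacterial HSP70. No table linked the models to gene names or sequences, and members are called by their Nitab4.5 identifiers.

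Summed FPKM of all models lay between 728572 and 756316 in the GDH64 libraries and between 634425 and 719776 in the MuGDH64 libraries, and the read depth is unknown. The median log2 change of all 32340 tested genes, MuGDH64 minus GDH64 on log2(FPKM + 1), was -0.176. Log2 changes below are given relative to this median, while adjusted p values belong to the change before the subtraction. A model is called higher or lower where limma gave a Benjamini-Hochberg adjusted p under 0.05 over all tested genes. Transcripts typical of leaf were abundant in both lines. The 8 tested models of the Rubisco small chain summed to 7024 ± 570 FPKM in GDH64 and 7538 ± 85.6 FPKM in MuGDH64 (mean ± SD, n = 3 libraries, as in all such values below). The 63 tested chlorophyll a-b binding models summed to 7670 ± 357 and 7063 ± 402 FPKM, and the 7 tested seed oleosin or storage models to 45.3 ± 4.03 and 37.4 ± 0.628 FPKM. The 24 tested models of pollen allergen families, which leaves can also express, summed to 486 ± 26.6 and 429 ± 13.8 FPKM. In these bulk leaf samples, fewer cells of a type and less RNA per cell cannot be told apart.

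Chaperone genes moved in both directions between the lines. In MuGDH64 3 of the 4 most abundant HSP70 models were lower, 9 HSP70 models with few transcripts were higher, all 3 endoplasmin models were higher, and 1 HSP90 model rose 14.7-fold. Of the 102 tested members 17 were called higher and 10 lower. Over all tested genes 2.2% were called higher and 9.74% lower, or 11.9% in both directions, against 16.7% and 9.80% of the members. On the deposited scale and with the filter, the share of members called lower was thus near that of all genes, and the share called higher was above it. The median relative log2 change of the members was 0.0974. The filter was met through 1 line alone by 2 members, 1 of which is among the 17, so these shares describe the members that passed it. Without the filter 130 members with any value above 0 could be tested. Of these 14 were called higher (10.8%) and 10 lower (7.69%), against 1.07% and 3.85% of all genes.

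The libraries of the lines did not overlap for 26 members that were higher in MuGDH64 (25.5%, against 5.68% of all tested genes) and for 27 that were lower (26.5%, against 31.8%). With other scalings, 23 members (22.5%) were called higher and 9 (8.82%) lower after quantile normalization, against 4.43% and 5.17% of all genes. After median-centring the members had the same counts, against 6% and 4.28% of all genes. Under both scalings, and without the filter, the share of members called lower was above that of all genes. Of the 27 called members, 26 kept their call and direction under each of these scalings.

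**Figure D1:**
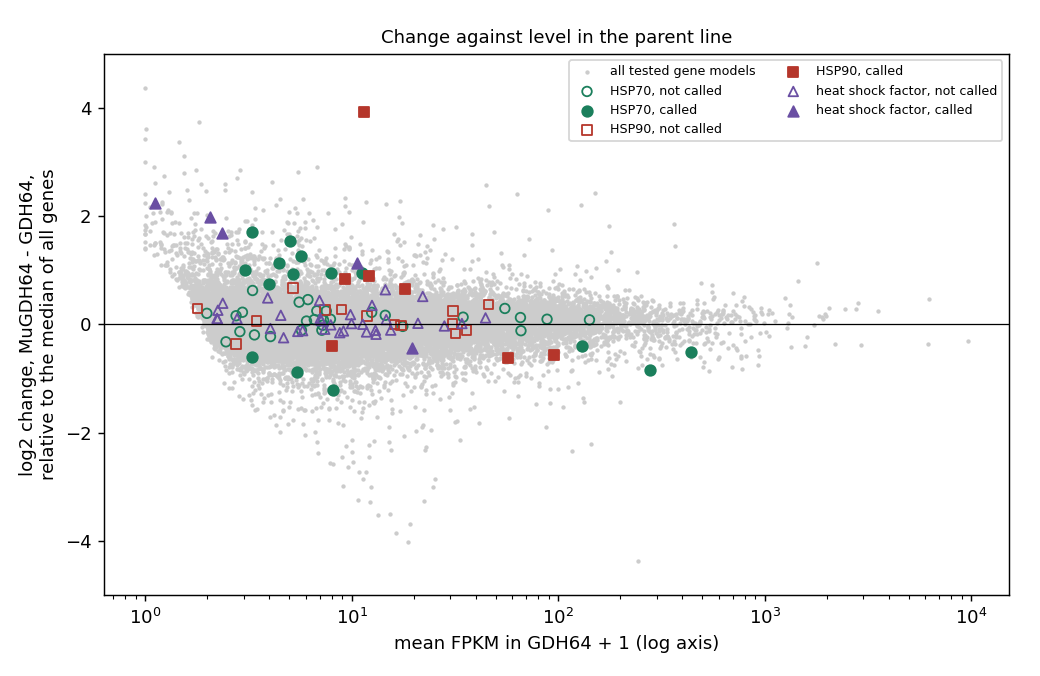
Relative log2 change (MuGDH64 minus GDH64, vertical axis) against the mean FPKM in GDH64 plus 1 (horizontal log axis) for each tested gene model, with all 32340 tested models in grey. Filled symbols are members past the adjusted p of 0.05; the HSP90 model at 3.94 stands at the top, and the filled HSP70 symbols at 129 FPKM and above all lie below 0.

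HSP70 was the most abundant class. The 43 tested models summed to 1487, 1583 and 1335 FPKM in the GDH64 libraries and to 1180, 1142 and 1045 FPKM in the MuGDH64 libraries, a mean of 0.764 of the parent level, and the lines did not overlap. Of these models 9 were called higher and 6 lower, and 28 did not pass. All 9 higher models carry the HSP70 conserved site without the DnaK signature, a group of 26 tested models in which 4 others were lower. None of the 9 tested models described by the family name alone was called by limma, 1 was lower at an unadjusted p under 0.05, and their relative log2 changes ran from -0.132 to 0.162.

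The HSP70 model with the highest level, Nitab4.5_0009884g0020, stood at 437, 505 and 383 FPKM in the GDH64 libraries and at 288, 279 and 248 FPKM in MuGDH64. The next, Nitab4.5_0000349g0130, stood at 284, 317 and 228 against 141, 138 and 127 FPKM. A further abundant model, Nitab4.5_0000527g0160, stood at 133, 146 and 109.5 against 87.5, 87.3 and 83.3 FPKM. For all 3 of these models each GDH64 library lay above each MuGDH64 library. Their relative log2 changes were -0.52 (SE 0.116, adjusted p = 0.00883), -0.84 (SE 0.124, adjusted p = 0.00255) and -0.40 (SE 0.113, adjusted p = 0.0155). The call of Nitab4.5_0000527g0160 was lost without GDH64 library 1 (adjusted p = 0.0567, range 0.00849 to 0.0567 over 14 other settings). The first 2 of these models together made 718 ± 106 FPKM in GDH64 and 407 ± 28.1 FPKM in MuGDH64, so most of the difference in the class sum lay in them. Not every abundant HSP70 was lower. Nitab4.5_0001800g0070 stood at 151, 123 and 148 FPKM in GDH64 against 135, 133 and 127 FPKM in MuGDH64, with overlapping lines and an adjusted p of 0.559.

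The DnaK signature marks HSP70 of the bacterial type, which in plants serves plastids and mitochondria. Its 2 most abundant models did not pass. Nitab4.5_0005169g0030 stood at 85.5, 93.8 and 82.95 FPKM in GDH64 against 82.2, 86.9 and 78.8 FPKM in MuGDH64 (adjusted p = 0.567), and Nitab4.5_0001773g0040 at 64.7 ± 3.06 and 62.6 ± 4.61 FPKM (adjusted p = 0.749). A p that misses the threshold does not show that their levels were equal. Of the 8 DnaK models 2 with few transcripts were lower. Nitab4.5_0000167g0130 stood at 6.42, 6.27 and 8.70 FPKM in GDH64 against 2.46, 1.86 and 1.91 FPKM in MuGDH64. It fell by 1.22 on the relative log2 scale (SE 0.157, adjusted p = 0.00155), the largest fall among the 102 members. Nitab4.5_0001579g0060 fell from 2.30 ± 0.165 to 0.930 ± 0.191 FPKM (adjusted p = 0.0135). Another low model, Nitab4.5_0000463g0020 of the conserved-site group, fell from 4.45 ± 0.466 to 1.66 ± 0.514 FPKM (adjusted p = 0.00723).

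The 9 HSP70 models that were higher summed to 40.9 ± 4.31 FPKM in GDH64 and 87.4 ± 12.6 FPKM in MuGDH64, small beside the 861 ± 122 and 498 ± 30.8 FPKM of the 6 that were lower. Nitab4.5_0009965g0010 stood at 2.69, 2.45 and 1.71 FPKM in GDH64 against 9.69, 7.96 and 7.71 FPKM in MuGDH64, a 3.70-fold rise in mean FPKM. Nitab4.5_0000015g0210 stood at 4.16, 4.51 and 3.49 against 13.5, 11.3 and 11.3 FPKM, 2.97-fold higher. Nitab4.5_0012222g0020 stood at 4.91, 4.41 and 4.83 against 12.3, 10.3 and 10.8 FPKM, 2.37-fold higher. For each of these 3 the lowest MuGDH64 library lay well above the highest GDH64 library. Their relative log2 changes were 1.71 (SE 0.156, adjusted p = 9.51e-04), 1.54 (SE 0.129, adjusted p = 6.73e-04) and 1.26 (SE 0.116, adjusted p = 0.00121), and all 3 passed in each of 14 other settings. With the filter of 5 FPKM all 3 met it through MuGDH64 alone, so that setting is no support for them.

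The other 6 higher HSP70 models changed between 1.65-fold and 2.22-fold. Nitab4.5_0001962g0090 rose from 3.43 ± 0.831 to 7.61 ± 1.26 FPKM (adjusted p = 0.0112), Nitab4.5_0000673g0030 from 2.04 ± 0.533 to 4.38 ± 0.419 FPKM (adjusted p = 0.0152) and Nitab4.5_0002439g0070 from 4.22 ± 0.190 to 7.85 ± 1.09 FPKM (adjusted p = 0.00953). These 3 passed in every other setting in which they met the filter. Nitab4.5_0001962g0090 and Nitab4.5_0002439g0070 met the filter of 5 FPKM through MuGDH64 alone, so their calls there are no support. The remaining 3 were less stable to the choice of libraries. Nitab4.5_0002367g0170 rose from 6.90 ± 0.437 to 12.8 ± 3.40 FPKM (adjusted p = 0.0207) and missed when GDH64 library 1 (0.0501), GDH64 library 2 (0.055) or the filter (0.0544) was dropped, in a range of 0.00762 to 0.055. Nitab4.5_0005771g0020 rose from 10.2 ± 2.29 to 18.1 ± 3.42 FPKM (adjusted p = 0.026) and missed when GDH64 library 2 (0.0796) or 3 (0.0605), MuGDH64 library 1 (0.068) or 2 (0.062) or the filter (0.0653) was dropped, in a range of 0.0108 to 0.0796. Nitab4.5_0008439g0040 rose from 2.98 ± 0.196 to 4.93 ± 0.156 FPKM (adjusted p = 0.018) and missed when GDH64 library 1 (0.0615) or any MuGDH64 library (0.0516, 0.0648 and 0.051) was left out, in a range of 0.00421 to 0.0648. Another conserved-site model, Nitab4.5_0001843g0090, stood at 2.31 ± 0.142 and 3.54 ± 0.301 FPKM and missed the threshold as deposited (adjusted p = 0.0526), but passed after quantile normalization (0.0135).

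**Figure D2:**
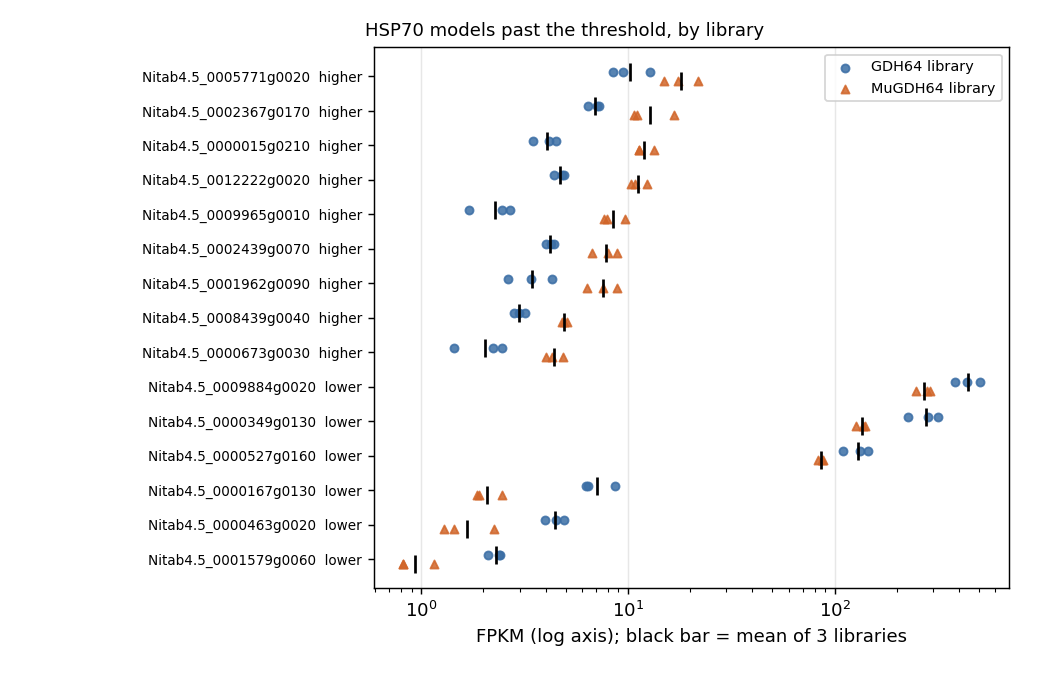
FPKM (horizontal log axis) in each library for the 15 HSP70 models past the threshold, with GDH64 as circles, MuGDH64 as triangles and the mean of 3 libraries as a black bar. The 9 higher models all have a GDH64 mean at or below 10.2 FPKM, and 3 of the 6 lower models have one of at least 129 FPKM.

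The HSP90 class held 15 tested HSP90 models, 3 of them endoplasmins, and 6 models described as activators of the Hsp90 ATPase, which are co-chaperones and not HSP90 themselves. The 21 models summed to 447, 482 and 395 FPKM in GDH64 and to 567, 531 and 496 FPKM in MuGDH64, and the lines did not overlap. The class sum was thus higher in MuGDH64 while that of HSP70 was lower. Of the 21 models 4 were called higher and 3 lower.

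The higher sum rested on Nitab4.5_0000152g0350. It stood at 11.3, 10.3 and 10.1 FPKM in GDH64 against 160, 155 and 151 FPKM in MuGDH64, with little spread within each line (relative log2 change 3.94, SE 0.0895, adjusted p = 3.97e-07). In GDH64 it made 2.40% of the class sum and was exceeded by several other HSP90 models, while in MuGDH64 it made 29.3% and was the most abundant. Without this model the class sum on the deposited scale was 431 ± 43.7 FPKM in GDH64 and 376 ± 31.2 FPKM in MuGDH64. It was thus lower rather than higher in the irradiated line, with libraries that overlapped. On that scale the median log2 change of all tested genes was -0.176 as well, and no rescaled sum was made without this model. The models numbered on either side of Nitab4.5_0000152g0350 on the same scaffold did not share its change. Nitab4.5_0000152g0340, a pre-mRNA splicing factor, stood at 13.3 ± 0.962 and 13.5 ± 0.495 FPKM (adjusted p = 0.911), and Nitab4.5_0000152g0360, a ribosomal S19e protein, was at 0 FPKM in all 6 libraries.

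The most abundant HSP90 model of the parent line moved the other way. Nitab4.5_0000598g0060 stood at 94.96, 108 and 81.6 FPKM in GDH64 against 57.9, 58.2 and 53.1 FPKM in MuGDH64 and fell by 0.556 on the relative log2 scale (SE 0.114, adjusted p = 0.00666). Its share of the class sum was 21.4% in GDH64 and 10.6% in MuGDH64. The model numbered before it, the cation efflux protein Nitab4.5_0000598g0050, met the filter through GDH64 alone and was lower as well, at 7.15 ± 0.822 and 0.200 ± 0.131 FPKM (adjusted p = 3.3e-05). A less abundant HSP90, Nitab4.5_0006030g0020, stood at 7.05 ± 0.469 and 4.43 ± 0.162 FPKM (adjusted p = 0.0161). Its call was lost after quantile normalization (0.0545), after median-centring (0.0532), without GDH64 library 1 (0.0685) and without MuGDH64 library 3 (0.0515), in a range of 0.014 to 0.0685.

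All 3 endoplasmin models were higher in MuGDH64, each with no overlap between the lines. Nitab4.5_0000337g0070 stood at 11.3, 12.2 and 9.84 FPKM in GDH64 against 22.3, 18.8 and 16.2 FPKM in MuGDH64, 1.72-fold higher (relative log2 change 0.902, SE 0.138, adjusted p = 0.0136). Nitab4.5_0003251g0080 stood at 8.16, 9.19 and 7.43 against 15.7, 13.6 and 11.7 FPKM, 1.65-fold higher (relative log2 change 0.832, SE 0.135, adjusted p = 0.0184). Nitab4.5_0000337g0060 stood at 17.9, 17.6 and 16.1 against 28.7, 24.2 and 21.1 FPKM, 1.43-fold higher (relative log2 change 0.664, SE 0.125, adjusted p = 0.0391). In each of them MuGDH64 library 1 was the highest and library 3 the lowest of its line. The first call held in all 14 other settings. The call of Nitab4.5_0003251g0080 was lost without GDH64 library 1 (0.0568), MuGDH64 library 1 (0.0527) or MuGDH64 library 2 (0.0547), in a range of 0.00277 to 0.0568. That of Nitab4.5_0000337g0060 was lost when any GDH64 library was left out (0.0872, 0.0848 and 0.0866), without MuGDH64 library 1 (0.0941) or 2 (0.0926), without the filter (0.0697) and without the variance trend (0.0563), in a range of 0.00617 to 0.0941. The 2 models with the prefix 0000337 carry adjacent numbers, so reads may have been split between neighbouring copies or parts of 1 gene. Without GDH64 library 1, MuGDH64 library 1 or MuGDH64 library 2 the count of higher models in the HSP90 class was 2 in place of 4.

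Among the other HSP90 models 9 did not pass, with relative log2 changes from -0.358 to 0.676. Nitab4.5_0000259g0100, the second most abundant in the parent line, stood at 44.9, 48.3 and 41.7 FPKM in GDH64 against 54.9, 51.0 and 48.6 FPKM in MuGDH64 without overlap (adjusted p = 0.209), and passed after quantile normalization (0.0401). Nitab4.5_0001622g0050 stood at 3.47, 4.93 and 4.22 against 6.71, 6.51 and 5.75 FPKM (adjusted p = 0.0515) and also passed after quantile normalization (0.0102). Nitab4.5_0003130g0050 stood at 36.8, 39.6 and 28.5 against 29.9, 29.4 and 25.8 FPKM with overlapping lines (adjusted p = 0.187). Of the activators of the Hsp90 ATPase, which speed up the HSP90 cycle, the most abundant was lower. Nitab4.5_0000019g0070 stood at 55.7, 63.3 and 49.3 FPKM in GDH64 against 34.7, 29.96 and 31.0 FPKM in MuGDH64 and fell by 0.615 on the relative log2 scale (SE 0.115, adjusted p = 0.00506). The other 5 did not pass, and the summed FPKM of all 6 was 105 ± 12.2 in GDH64 and 74.7 ± 6.67 in MuGDH64.

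**Figure D3:**
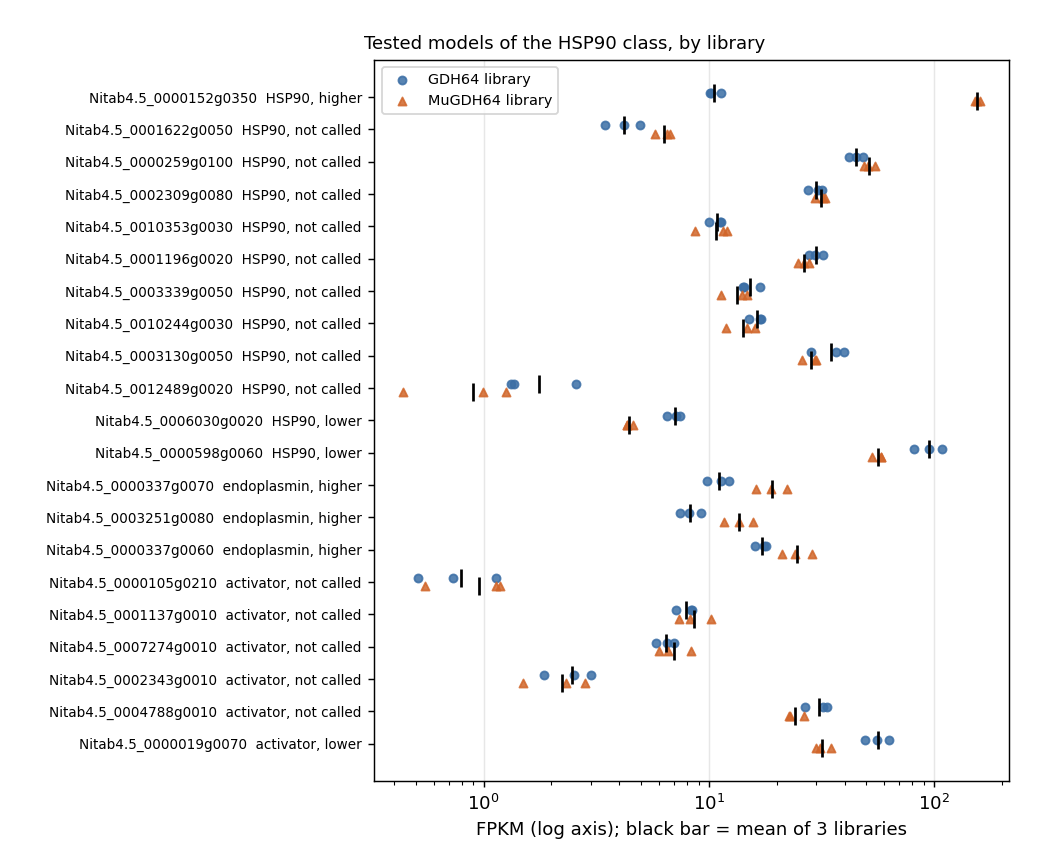
FPKM (horizontal log axis) in each library for the 21 tested models of the HSP90 class, with GDH64 as circles, MuGDH64 as triangles and the mean of 3 libraries as a black bar. The top model moves from about 10.5 to 155 FPKM, the 3 endoplasmins lie to the right in MuGDH64, and most others overlap.

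Of the 10 lower members 5 (50%) were highest in GDH64 library 2 and lowest in GDH64 library 3, an order that 32.4% of all tested genes had. These were Nitab4.5_0009884g0020, Nitab4.5_0000349g0130, Nitab4.5_0000527g0160, Nitab4.5_0000598g0060 and the activator Nitab4.5_0000019g0070, the 5 lower members above 50 FPKM in the parent line. Of the 17 higher members 15 were highest in MuGDH64 library 1 among the MuGDH64 libraries, against 48.7% of all tested genes. GDH64 library 2 and MuGDH64 library 1 also had the highest summed FPKM of their lines, and GDH64 library 3 the lowest of its line. The part of these library differences in the calls was not tested.

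**Figure D4:**
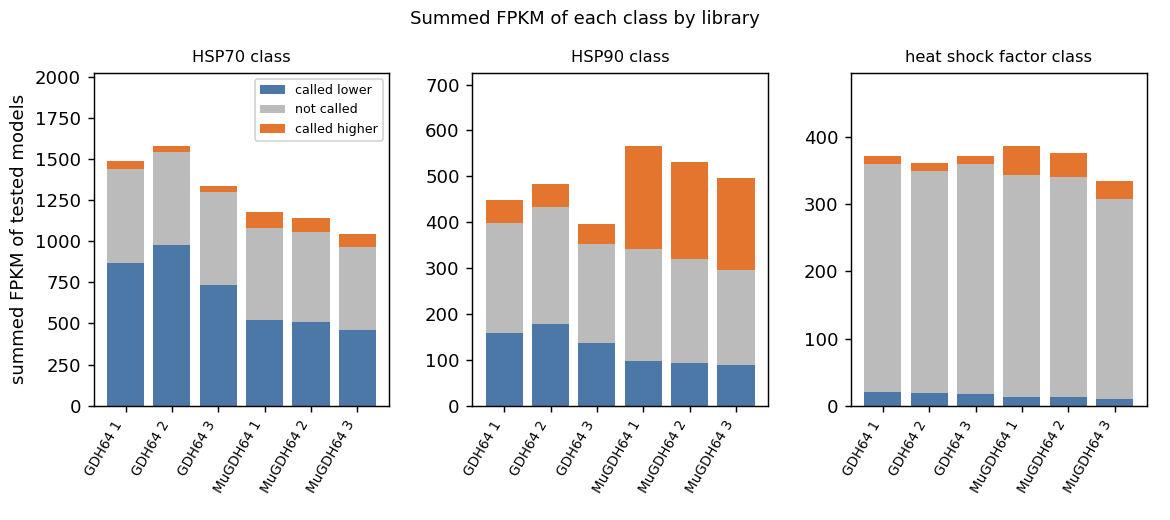
Summed FPKM of the tested models of each class in each library (bars from 0), split into models called lower, not called and called higher in MuGDH64. The HSP70 bars fall with the lower models, the HSP90 bars rise with the higher models, and the heat shock factor bars stay between 335 and 388 FPKM.

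The heat shock factor class held 35 tested models with the DNA-binding domain and 3 described as heat shock factor binding proteins. Its sum was 372, 362 and 373 FPKM in GDH64 and 388, 377 and 335 FPKM in MuGDH64, and the lines overlapped. Of the 38 models 4 were called higher and 1 lower, all with the DNA-binding domain. The factors with the most transcripts did not pass. The most abundant, Nitab4.5_0002016g0030, stood at 42.3, 40.1 and 48.2 FPKM in GDH64 against 41.0, 42.9 and 41.3 FPKM in MuGDH64 (adjusted p = 0.727). The next was Nitab4.5_0009939g0010, at 33.2 ± 2.93 and 29.7 ± 3.33 FPKM (adjusted p = 0.373), followed by Nitab4.5_0012199g0010 at 27.1 ± 0.949 and 23.5 ± 2.02 FPKM (adjusted p = 0.199). Nitab4.5_0000716g0250 stood at 19.95 ± 1.47 and 17.8 ± 1.39 FPKM (adjusted p = 0.346).

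Of the factors that were higher, Nitab4.5_0002328g0020 had a mean of 9.66 FPKM in GDH64, and the others had means of 0.113, 1.06 and 1.36 FPKM. Nitab4.5_0000586g0140 stood at 1.09, 1.11 and 0.99 FPKM in GDH64 against 8.18, 5.60 and 5.2 FPKM in MuGDH64 (relative log2 change 1.98, SE 0.170, adjusted p = 6.51e-04). Nitab4.5_0000082g0150 stood at 0.80, 1.55 and 1.73 against 7.45, 4.74 and 5.04 FPKM (relative log2 change 1.69, SE 0.210, adjusted p = 0.00404). Nitab4.5_0002328g0020 stood at 10.5, 9.00 and 9.46 against 24.96, 20.3 and 14.8 FPKM (relative log2 change 1.13, SE 0.173, adjusted p = 0.0117). In all 3 the lines did not overlap, and each passed in every other setting in which it met the filter. Nitab4.5_0000586g0140 met the filter of 5 FPKM through MuGDH64 alone, so its call there is no support. The remaining factor, Nitab4.5_0002839g0010, stood at 0.11, 0 and 0.23 FPKM in GDH64 against 3.51, 4.74 and 2.90 FPKM in MuGDH64 (adjusted p = 4.89e-04). It met the filter through MuGDH64 alone, so that its lines could not overlap. Its call is no support, although the counts of higher members include it. The other 3 higher factors summed to 12.1 ± 0.38 FPKM in GDH64 and 32.1 ± 7.87 FPKM in MuGDH64.

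The 1 lower factor was Nitab4.5_0002904g0100, at 19.7, 18.3 and 17.9 FPKM in GDH64 and 12.5, 12.6 and 10.4 FPKM in MuGDH64. It fell by 0.439 on the relative log2 scale (SE 0.112, adjusted p = 0.0117), and its call was lost without GDH64 library 1 (0.0502, range 0.00643 to 0.0502), which left no lower factor. The heat shock factor binding proteins did not pass as deposited. Nitab4.5_0000570g0120 stood at 16.4, 11.7 and 12.6 FPKM in GDH64 against 22.8, 17.4 and 17.1 FPKM in MuGDH64 (adjusted p = 0.0836). Nitab4.5_0003546g0070 stood at 19.5, 20.5 and 23.3 against 31.7, 24.2 and 25.4 FPKM (adjusted p = 0.107). For both the lines did not overlap, and both passed as higher after quantile normalization (0.043 and 0.045). Nitab4.5_0004438g0100 stood at 3.26, 2.62 and 2.89 against 5.95, 3.18 and 2.97 FPKM with overlapping lines (adjusted p = 0.341).

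**Figure D5:**
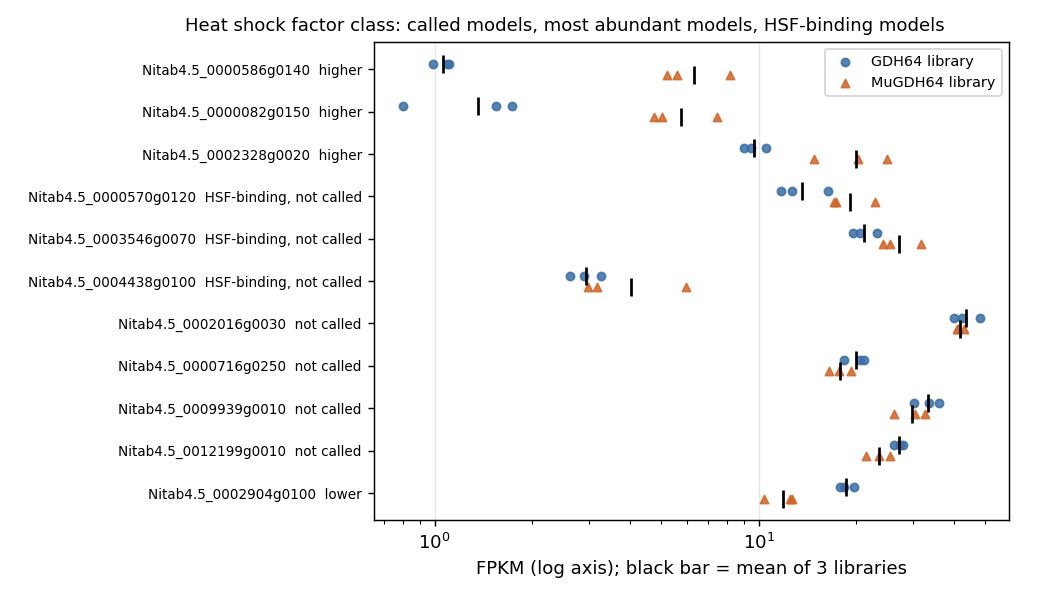
FPKM (horizontal log axis) in each library for called heat shock factors, the most abundant ones and the 3 heat shock factor binding proteins, with GDH64 as circles, MuGDH64 as triangles and the mean of 3 libraries as a black bar. Nitab4.5_0002839g0010 is left out because 1 library is at 0; the abundant factors between about 17.8 and 43.5 FPKM mostly overlap, and the called ones do not.

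Of the 52 members that did not meet the filter, 24 were at 0 FPKM in all 6 libraries and 28 had a value above 0 in at least 1 library. Just inside the filter, the HSP70 model Nitab4.5_0001800g0020 stood at 0.92, 0.95 and 1.10 FPKM in GDH64 against 1.13, 1.44 and 0.61 FPKM in MuGDH64. Just outside it, the heat shock factor binding protein Nitab4.5_0000191g0110 stood at 0.85, 1.01 and 0.44 against 0.67, 0.66 and 1.15 FPKM. The highest single value outside it was 6.6 FPKM in GDH64 library 3 for the HSP70 model Nitab4.5_0000271g0160, which was at 0 in the other libraries. The other member that met the filter through 1 line alone, the HSP70 model Nitab4.5_0006082g0020, stood at 1.10, 2.22 and 1.07 FPKM in GDH64 against 0.61, 0.91 and 0.62 FPKM in MuGDH64 (adjusted p = 0.142).

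In 6 of the 7 lists of partners of these classes more models were called lower than higher on the deposited scale, and prefoldins were the exception. The same held over all tested genes, with 712 called higher and 3151 lower, so this tally does not set the lists apart. The list of small heat shock proteins, which hold unfolded proteins until HSP70 takes them over, was searched as Hsp20 or alpha crystallin. Of its 69 tested models 2 were called higher (2.90%) and 11 lower (15.9%), with a median relative log2 change of 0.066. It shares 20 tested models with the list of Hsp90 partners below, so these shares may not be of small heat shock proteins alone. None of the 20 was called by limma (2 higher and 0 lower at an unadjusted p under 0.05). Nitab4.5_0000286g0060 fell from 27.9 ± 2.01 to 12.8 ± 2.55 FPKM (adjusted p = 0.0031). Nitab4.5_0000319g0220 stood at 4.92 ± 1.63 and 0.250 ± 0.192 FPKM (adjusted p = 9.63e-04), and it met the filter through GDH64 alone, so that its lines could not overlap. Of 211 DnaJ proteins, which deliver clients to HSP70 and stimulate its ATPase, 7 were called higher (3.32%) and 20 lower (9.48%), with a median relative change of -0.021. The abundant DnaJ model Nitab4.5_0015004g0010 fell from 772 ± 89.99 to 454 ± 18.1 FPKM (adjusted p = 0.00369), and Nitab4.5_0006983g0010 from 12.5 ± 0.704 to 5.65 ± 0.560 FPKM (adjusted p = 0.00149). These shares stand beside 2.2% and 9.74% of all genes, and no test compared the lists.

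Among 26 exchange factors and BAG domain proteins, which help HSP70 let go of ADP, 1 was called higher (3.85%) and 5 lower (19.2%). The 1 called higher met the filter through MuGDH64 alone, so that its lines could not overlap. The shares in this paragraph stand beside 2.2% called higher and 9.74% called lower of all tested genes. The BAG model Nitab4.5_0002234g0100 fell from 37.1 ± 1.01 to 22.6 ± 1.34 FPKM (adjusted p = 0.00352) and the BAG model Nitab4.5_0001306g0030 from 8.81 ± 0.560 to 4.75 ± 0.786 FPKM (adjusted p = 0.00992). Among 25 HSP100 and Clp proteins, which pull apart aggregates or feed proteases, none was called higher by limma (also 0 at an unadjusted p under 0.05) and 2 lower (8%). These were the ClpA/B models Nitab4.5_0000684g0090, at 25.6 ± 3.83 and 16.6 ± 1.32 FPKM (adjusted p = 0.0213), and Nitab4.5_0001150g0030, at 23.8 ± 3.46 and 16.9 ± 0.531 FPKM (adjusted p = 0.0379). The text search for Hsp90 partners also caught parts of other words, such as MscS-like and Utp23. Its 62 tested models include the 6 activators, and 20 of them are shared with the small heat shock protein list. Among the 62, none was called higher by limma (3 at an unadjusted p under 0.05) and 3 lower (4.84%). Of the 48 that matched by whole words, 1 was called lower, the activator Nitab4.5_0000019g0070. Among the others the lower model with the smallest adjusted p was Nitab4.5_0004953g0020, at 15.7 ± 1.63 and 10.3 ± 1.07 FPKM (adjusted p = 0.0212), a mechanosensitive ion channel and no known partner of HSP90. Of 19 prefoldins 1 (5.26%) was called higher, Nitab4.5_0010327g0020, at 4.75 ± 2.17 and 12.7 ± 3.99 FPKM (adjusted p = 0.0243). The chaperonin list took in 45 tested models with a GroES-like fold, which alcohol dehydrogenases share, and both of its models named here, those with the smallest adjusted p, were of that kind. The whole list had 5 called higher (4.13%) and 12 lower (9.92%). Nitab4.5_0007704g0020 stood at 6.84 ± 0.703 and 13.8 ± 1.56 FPKM (adjusted p = 0.00398), and Nitab4.5_0002473g0070 at 17.4 ± 3.21 and 8.94 ± 0.624 FPKM (adjusted p = 0.00723). Among the other 76 models 1 was called higher (1.32%) and 4 lower (5.26%).

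The neighbours of the called members in the identifier numbering were examined, since adjacent copies or parts of a gene can share or split reads. Tobacco is an allotetraploid, and near-identical copies on other scaffolds were not looked for. The 27 called members had 46 neighbouring models on the same scaffold prefix, of which 25 were tested. Of these 3 were called higher and 3 lower, beside 2.2% and 9.74% of all tested genes. The higher ones include the adjacent endoplasmins Nitab4.5_0000337g0060 and Nitab4.5_0000337g0070, called members counted as neighbours of each other. The lower ones include Nitab4.5_0000598g0050, which met the filter through GDH64 alone. No test compared the neighbours with all genes. Nitab4.5_0000586g0130, beside the factor Nitab4.5_0000586g0140, was higher at 7.29 ± 0.465 against 5.09 ± 0.516 FPKM (adjusted p = 0.0448). Nitab4.5_0000586g0150 on its other side met the filter through GDH64 alone and was lower at 0.843 ± 0.120 against 2.02 ± 0.367 FPKM (adjusted p = 0.024). The model Nitab4.5_0006030g0010 beside Nitab4.5_0006030g0020 was lower too, at 5.82 ± 0.428 against 8.85 ± 1.25 FPKM (adjusted p = 0.0353). The numbering was read as order along a scaffold, and no coordinates were used.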

How the data were processed

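Leaf RNA of 3 libraries of GDH64 and 3 of MuGDH64 was sequenced as paired ends on an Illumina NovaSeq X after TRIzol extraction and TruSeq preparation, per the labels' protocols. TopHat2 and Cufflinks are named in the submitters' processing notes without versions or roles; a genome build is not given in the sources used here. Deposited values were taken as FPKM made by the authors, by inference from the values and Cufflinks. The authors' means per line were not used. The depth is unknown, so no counting error is given.

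The test was limma 3.58.1 under R 4.3.3, fitted to log2(FPKM + 1) with line as the only term and a variance trend over the mean level. Models reaching 1 FPKM in 3 or more libraries entered it. It was two-sided, with Benjamini-Hochberg adjustment over all tested genes at 0.05. The log2(FPKM + 1) scale understates changes of low genes. The procedure was tested on simulated data. Alternatives were other scalings, filters, variance models and pseudocounts, a replicate block, and fits that dropped 1 library each. In each class every member past the threshold, the 5 with the highest mean and the 3 with the smallest adjusted p are named, with 2 models of each partner list; members shown for the filter, for the scaling or as neighbours were chosen after their values were seen. Members and lists were chosen with earlier results of these data known. Plots were made with Python 3.11.15, pandas 2.3.3 and matplotlib 3.10.9.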

Additional observations from a re-analysis of the deposited data

How the results depend on the processing

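Of 369 results of the 27 called members under 14 other settings, 341 kept direction and call, 28 missed the threshold and none changed direction. In every setting they could be tested in, 19 members passed. These tallies include results with the filter of 5 FPKM for members that met it through 1 line alone, where the lines could not overlap. Leaving out 1 library each gave 2 to 4 higher models in the HSP90 class and 0 to 1 lower heat shock factors; it gave 348 to 650 higher and 1345 to 2491 lower calls over all genes. With a filter of 5 FPKM 2 heat shock factors were higher, and Nitab4.5_0000586g0140 among them met that filter through MuGDH64 alone. Over all genes quantile normalization gave 1433 higher and 1671 lower calls, median-centring 1940 and 1384, rescaling to a sum of 1000000 gave 1285 higher, and dropping the filter 1784 lower. Rescaling moved summed FPKM in GDH64 and MuGDH64 to 1968 and 1636 for HSP70, 592 and 774 for HSP90, and 495 and 534 for heat shock factors. Median-centring gave 1205 for HSP70 and 571 for HSP90 in MuGDH64, and 342 and 395 for heat shock factors in the 2 lines; quantile normalization gave 347 for heat shock factors in GDH64, and the filter of 5 gave 338 and 331. Before the subtraction of the all-gene median, the log2 changes of 5 abundant members without a call lay between -0.16 and -0.05, and these unsubtracted values turned positive for Nitab4.5_0005169g0030 (0.0404 rescaled, 0.12 median-centred), Nitab4.5_0001800g0070 (0.0297 and 0.11), Nitab4.5_0000716g0250 (0.0464 median-centred), Nitab4.5_0009939g0010 (0.0426 median-centred) and Nitab4.5_0002016g0030 (0.0524 after quantile normalization, 0.0641 rescaled, 0.15 median-centred, and -0.11 to 0.0195 with 1 library left out). The median over all tested genes moved as well, from -0.176 as deposited to -0.00483 after quantile normalization, -0.0796 rescaled and 0.0248 median-centred. Median-centring shifts every gene of a library by the same amount. Any other cause was not tested. Same-numbered libraries did not deviate together over the tested genes (correlations of 0.0148, 0.0131 and 0.0511). These values cannot tell whether the numbers stand for plots or blocks, so a pairing of the samples remains unknown. With the replicate block 9 HSP70 models were higher and 6 lower. The block gave 4 and 3 in the HSP90 class and 5 and 1 heat shock factors, against 712 and 3279 of all genes.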

Other observations

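Other chaperones of the endoplasmic reticulum were looked up after the endoplasmin values had been seen, so their counts are a description and no list was tested. Of 10 tested calreticulin or calnexin models, lectin chaperones that hold glycoproteins during folding, 3 were called higher and none lower, and 8 were higher without overlap between the lines. Over all tested genes 2.2% were called higher and 5.68% were higher without overlap. Nitab4.5_0008173g0030 stood at 44.2 ± 1.96 FPKM in GDH64 and 66.0 ± 8.33 FPKM in MuGDH64 (adjusted p = 0.0142), Nitab4.5_0000080g0340 at 68.8 ± 1.53 and 94.6 ± 13.3 FPKM (adjusted p = 0.034), and Nitab4.5_0002679g0060 at 20.4 ± 1.45 and 27.6 ± 3.16 FPKM (adjusted p = 0.0471). Of 12 tested disulphide isomerase models, which form and rearrange disulphide bonds, 2 were called higher and none lower, and 4 were higher without overlap, beside the same shares of all genes. The 2 called were Nitab4.5_0007257g0040, at 19.2 ± 2.02 and 32.6 ± 2.27 FPKM (adjusted p = 0.00553), and Nitab4.5_0000575g0200, at 11.9 ± 0.834 and 17.3 ± 2.48 FPKM (adjusted p = 0.035). The median relative log2 change was 0.520 for the calreticulin and calnexin models and 0.429 for the disulphide isomerases.

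The neighbours of some called members were noticed after the values had been seen. The abundant lower HSP70 model Nitab4.5_0000527g0160 lies beside an HSP20-like chaperone model in the numbering, Nitab4.5_0000527g0170, which stood at 32.7 ± 4.43 and 25.1 ± 2.54 FPKM (adjusted p = 0.091). The endoplasmins Nitab4.5_0000337g0060 and Nitab4.5_0003251g0080 each lie beside a kinesin motor model. The higher factors Nitab4.5_0000586g0140 and Nitab4.5_0002328g0020 each lie between an ABC transporter A model and a GTP-binding model. The higher HSP70 models Nitab4.5_0005771g0020 and Nitab4.5_0012222g0020 each lie beside an acyl-CoA-binding model with ankyrin repeats. Whether these members are near-identical copies was not tested.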
